A study of Mus musculus with 9 samples.

Results

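The genes described here form 2 linked sets: the enzymes and transporters that take up glucose and convert it to lactate, and genes known to respond to low oxygen. They were chosen from a list of 36 mouse gene symbols, each represented by the probe set of highest mean signal that the platform annotation gives to that symbol alone. Of the 36, 32 had such a probe set, out of 18193 genes with one in the whole table, and 27 were bright enough to be tested, with a mean signal of at least 100 over the 9 arrays. The 27 comprised 12 genes of glucose entry and glycolysis, 3 that control glycolytic flux (Pdk1, Pfkfb3 and Pfkfb4) and 12 of the hypoxia response.

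RNA from spontaneously immortalised mouse embryonic fibroblasts (MEFs) was hybridised to 9 arrays. Both lines were made from E13.5 embryos, and each genotype was represented by 1 line, so genotype and line cannot be told apart. The Suv420h1-null line lacks the histone H4 methyltransferase Suv420h1, now named Kmt5b. It was measured after reconstitution with a Suv420h1-GFP fusion (1 array) and as the null line proper, untransduced or given GFP (2 arrays). The wild-type line carried lentiviral constructs for PREX2 truncated by the stop mutations K278*, E824* or Q1430* (3 arrays), for full-length PREX2 (1 array), or for the control vectors GFP and LacZ (2 arrays). PREX2 activates the small GTPase Rac. A group holds no construct more than once, and the labels name no separate cultures, so the p-values cover only array-to-array spread, which may be technical.

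Glycolysis splits glucose into pyruvate with a net gain of ATP, and lactate dehydrogenase turns pyruvate into lactate when it is not burned in mitochondria. When oxygen falls, the prolyl hydroxylases that mark hypoxia-inducible factor (HIF) alpha subunits for destruction lose activity, and HIF then binds DNA with its partner Arnt and raises transcription of many glycolytic genes, of Vegfa and Adm, and of the collagen-modifying enzymes. Fibroblasts growing in culture normally express the glycolytic enzymes at high level, and the collagen hydroxylases serve the matrix that these cells secrete.

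The core letters bound by HIF are ACGTG or GCGTG on either strand, and ACGTG lies within CACGTG, the E-box, which other factors bind. In the 250 bases before the gene start (RefSeq, GRCm38.p6), 27 of the 29 members with a promoter in the table held at least 1 core, Tpi1 and Eno2 being those without; 41.5% of 27025 genes held one, and 6.02% of all promoters held CACGTG. Where a member had several starts, the window used held at least as many cores as any other. A window at another start of Aldoa, Hk1, Pdk1, Pfkm, Pkm and Vegfa held 0. No window was available for Plod2, Ndrg1 or Slc2a3. Among tested members with a window, the core was present in 11 of 12 that were lower in the null line than in the wild-type line. It was present in 4 of 4 that were higher and in 9 of 9 that did not pass. Of these tested members only Tpi1 lacked a core, so the presence of a core could not separate the directions. Windows of 4 members that were lower in the null line (Slc2a1, Pgk1, Ldha, Ero1a) and 2 that were higher (Adm, P4ha2) are shown so that both directions can be compared, 5′ to 3′ on the gene's strand with each core in capitals. They lie at chr4:119108495-119108744 (Slc2a1, plus strand), chrX:106186850-106187099 (Pgk1, plus strand), chr7:46845554-46845803 (Ldha, plus strand), chr14:45318573-45318822 (Ero1a, minus strand), chr7:110627407-110627656 (Adm, plus strand) and chr11:54100674-54100923 (P4ha2, plus strand).
Slc2a1: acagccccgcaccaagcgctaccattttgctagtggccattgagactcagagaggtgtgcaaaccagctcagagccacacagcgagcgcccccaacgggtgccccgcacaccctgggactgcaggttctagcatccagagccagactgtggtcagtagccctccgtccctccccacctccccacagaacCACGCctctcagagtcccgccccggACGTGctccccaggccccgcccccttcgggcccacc
Pgk1: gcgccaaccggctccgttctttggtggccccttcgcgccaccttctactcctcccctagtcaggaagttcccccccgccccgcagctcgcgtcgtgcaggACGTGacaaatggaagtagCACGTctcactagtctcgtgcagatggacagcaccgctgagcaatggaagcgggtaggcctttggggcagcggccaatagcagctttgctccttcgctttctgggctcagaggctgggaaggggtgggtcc
Ldha: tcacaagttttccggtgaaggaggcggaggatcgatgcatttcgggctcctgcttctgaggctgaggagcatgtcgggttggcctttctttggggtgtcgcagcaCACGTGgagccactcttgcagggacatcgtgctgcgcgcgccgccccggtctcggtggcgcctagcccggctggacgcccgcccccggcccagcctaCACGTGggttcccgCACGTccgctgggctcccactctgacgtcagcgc
Ero1a: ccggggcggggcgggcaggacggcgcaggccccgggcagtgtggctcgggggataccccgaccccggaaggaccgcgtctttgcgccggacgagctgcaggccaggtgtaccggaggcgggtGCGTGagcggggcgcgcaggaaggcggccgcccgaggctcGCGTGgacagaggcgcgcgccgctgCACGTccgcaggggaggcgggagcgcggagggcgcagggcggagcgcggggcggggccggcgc
Adm: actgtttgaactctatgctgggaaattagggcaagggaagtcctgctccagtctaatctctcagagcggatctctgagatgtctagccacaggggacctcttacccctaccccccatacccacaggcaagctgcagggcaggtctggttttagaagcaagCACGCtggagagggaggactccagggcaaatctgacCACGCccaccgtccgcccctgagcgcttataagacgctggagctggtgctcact
P4ha2: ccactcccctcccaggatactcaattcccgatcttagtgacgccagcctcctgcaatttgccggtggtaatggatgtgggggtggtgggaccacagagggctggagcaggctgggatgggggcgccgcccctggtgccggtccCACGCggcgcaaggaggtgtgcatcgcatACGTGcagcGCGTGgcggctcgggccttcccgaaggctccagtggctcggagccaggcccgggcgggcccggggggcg
A match describes letters and is neither a binding site nor a cause. Slc2a1 and Pgk1 have cores of both orientations, Ldha has E-boxes, and Adm, which changed in the opposite direction from Ldha, also has cores.

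The state of the arrays was examined first. A Kmt5b probe set with a mean signal of 118 (picked once its values were known) read 150.3 on the reconstituted array and 8.85 and 17.3 on the null arrays, against 118 to 182 in the wild-type line. The other 4 of the gene's 5 probe sets did not share this pattern: the brightest read 442 and 432 on the null arrays, inside the wild-type range, and the next read 554 on the reconstituted array and 536 and 462 on the null arrays, all above the wild-type 221 to 338. A dim set lay below the wild-type range and the dimmest inside it, and the files and labels do not place the sets relative to the deletion. The median signal of an array was 67.8 to 68.7 in the null line and 56.3 to 62.2 in the wild-type line, without overlap. The ratio of 3′ to 5′ Gapdh control signal lay between 0.815 and 0.922. In the comparison of all null-line with all wild-type-line arrays, 5 of 15 tested fibroblast markers were lower (33.3%, beside 23.2% of all tested genes) and 0 higher; Thy1 was 6.9 to 27.3 in the null line against 1097 to 3641 in the wild-type line, and the summed marker signal was 163518 to 176808 against 170844 to 236984. Markers of other cell types that were bright enough were also lower, namely 1 of 2 epithelial (Krt19), 1 of 1 endothelial (Tek), 2 of 3 macrophage (Csf1r, Cd14), 1 of 2 muscle (Acta1) and 2 of 3 neural (Map2, Tubb3), with summed signals in the null against the wild-type line of 470.6 to 559 against 584 to 641 (epithelial), 119 to 229 against 198 to 604 (endothelial), 600.3 to 650.2 against 1039.8 to 1264 (macrophage), 323 to 395 against 443 to 787 (muscle) and 233 to 453 against 1079 to 2203 (neural). Pecam1, Tie1, Ptprc, Itgam and Sox2 stayed at 34.4 or below on every array, but other defining markers were brighter: Epcam read 255 to 432 in the null line against 162 to 301 in the wild-type line, Des 69.0 to 150.2 against 103 to 224, Kdr 32.7 to 104 against 44.2 to 109 and Cdh5 34.5 to 49.8 against 17.9 to 31.5. No defining marker was at 0, and 0 of the 2 erythroid markers reached the filter. What part these differences have in the results was not tested, and in bulk RNA fewer cells of a type and less RNA per cell cannot be told apart.

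The null line had less of the glucose transporter Slc2a1, of 5 glycolytic enzymes and of Pdk1, the kinase that switches off pyruvate dehydrogenase, but more of hexokinase 2. All 3 null-line arrays were set against all 6 wild-type-line arrays in limma, with Benjamini-Hochberg adjustment over 19090 probe sets. Of the 27 tested members, 12 were lower, 5 were higher and 10 did not pass at an adjusted p of 0.05. Over all 10177 tested genes 43.9% passed, 23.2% lower and 20.7% higher, against 44.4% of members lower and 18.5% higher. The median log2 difference was -0.34 over members and -0.02 over all tested genes. After quantile normalization these medians were -0.28 and -0.05. Of the 12 glycolysis members 6 were lower (Slc2a1, Aldoa, Ldha, Pgk1, Pfkl, Tpi1), 1 was higher (Hk2) and 5 did not pass, with a median of -0.35.

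**Figure D1:**
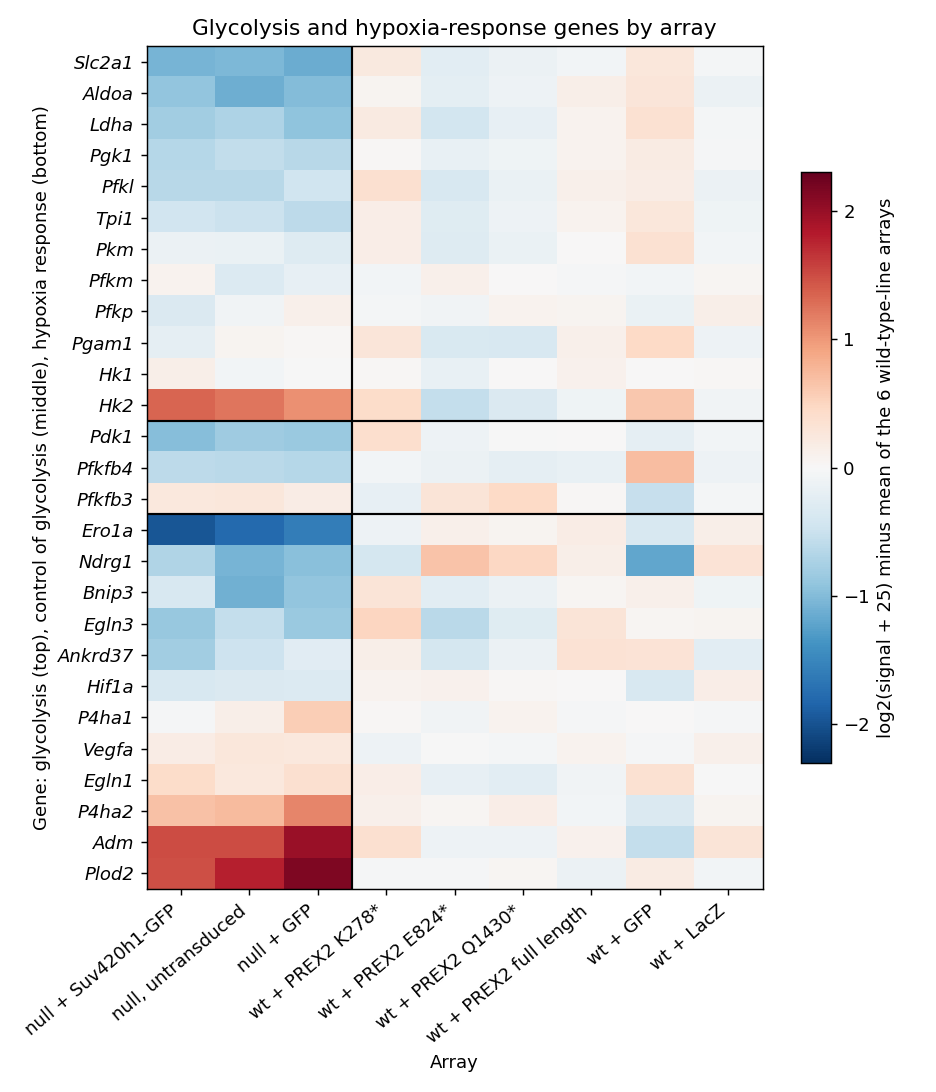
Signals of the 27 tested members (rows) on the 9 arrays (columns), as log2(signal + 25) minus the mean of the 6 wild-type-line arrays; red is above and blue below that mean. Slc2a1, Aldoa and Ero1a are below it on all 3 null-line arrays, Plod2, Adm and Hk2 above it, and Ndrg1 is low on the wild-type GFP array as well.

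Slc2a1 encodes GLUT1, the main glucose carrier of fibroblasts. Its signal was 3000.2 in reconstituted null cells and 3098 and 2865 in untransduced and GFP null cells, against 5354 to 7622 (median 6104) in the 6 wild-type-line arrays. No null-line array came near the wild-type range, and the log2 difference was -1.08 (SE 0.113, 95% interval -1.33 to -0.83, 3 against 6 arrays, adjusted p = 2.98e-05), a 2.12-fold lower level. Its 2 other tested probe sets gave -1.16 and -1.09. The neuronal-type glucose transporter Slc2a3 was dim on every array, at 41.4 or below.

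Hexokinases trap glucose in the cell by phosphorylation, and Hk2 is the inducible form. Hk2 read 1128, 1046 and 927 in reconstituted, untransduced and GFP null cells, against 289 to 681 (median 404) in wild-type-line arrays. Of the 12 tested glycolysis members it was the only one higher in the null line, by 1.21 on the log2 scale (SE 0.231, adjusted p = 0.00168), while the housekeeping form Hk1, at 1085 to 1239.5 against 1003 to 1209, differed by 0.02 (95% interval -0.17 to 0.21).

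Phosphofructokinase commits sugar to the pathway, and its liver-type subunit Pfkl was lower in the null line, with signals of 341, 339.8 and 391 against 419.8 to 714 (median 542) in the wild-type line. The ranges did not touch and the log2 difference was -0.58 (SE 0.153, adjusted p = 0.0105), although its other tested probe set gave only -0.11. The platelet-type and muscle-type subunits Pfkp and Pfkm overlapped between the lines and did not pass, at -0.10 and -0.14. Aldolase A, which cleaves the 6-carbon sugar, was lower by 2.01-fold: Aldoa read 5431, 4709.6 and 5087 in reconstituted, untransduced and GFP null cells against 8752 to 12402 (median 10119.5) in wild-type-line arrays, a log2 difference of -1.01 (SE 0.11, adjusted p = 3.95e-05). Its 4 other tested probe sets ranged from -1.14 to -0.21, all of 1 sign.

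Of the tested members that act after aldolase, Tpi1, Pgk1 and Ldha were lower by less than Aldoa, and Pgam1 and Pkm did not pass. Tpi1, which interconverts the 3-carbon sugars, read 9382, 8946 and 8339 in reconstituted, untransduced and GFP null cells against 10470.3 to 15205 (median 12573) in the wild-type line (log2 -0.51, SE 0.111, adjusted p = 0.00356). Pgk1, the first ATP-making step, read 14171, 15054 and 14435 against 19801 to 25602 (median 22423) in the wild-type line (log2 -0.62, SE 0.0787, adjusted p = 0.000115). In both genes every null-line array lay below every wild-type-line array. Ldha, the lactate dehydrogenase subunit favoured in glycolytic cells, read 7655, 8159.6 and 7053 in the null line against 9929 to 17072 (median 13626) in the wild-type line, and the log2 difference was -0.81 (SE 0.147, adjusted p = 0.00121). Pgam1 and Pkm, which act between Pgk1 and Ldha, had overlapping ranges, at -0.04 (95% interval -0.43 to 0.35) and -0.19 (-0.47 to 0.09).

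The glycolysis members without a test are given by their signals. Gapdh was read only from control probe sets and from sets shared with pseudogenes; its 3′ control signal was 14499, 15471 and 15209.7 in reconstituted, untransduced and GFP null cells against 15928 to 18714 (median 16783) in the wild-type line, below in all 3 arrays by a small margin. The ranges overlapped in its middle control set (13219 to 14516 against 14097 to 18282), its 5′ control set (16979 to 17917 against 17269 to 22963) and the brightest shared set (15603 to 16403 against 15825 to 20914), and in the 2 dimmer shared sets. Gpi1 and Eno1 were not analysed here. The neuronal enolase Eno2 was too dim to test, with 154, 121 and 120.3 in the null line and 58.9 to 95.1 in the wild-type line. Aldoc (37.3 to 53.3 against 43.6 to 75.8) and the lactate exporter Slc16a3 (3.82 to 38.6 against 7.04 to 79.9) were dim in both lines.

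Of the 3 control genes, 2 were lower and 0 higher, where 23.2% of all tested genes were lower and 20.7% higher. A share of 3 genes is too coarse to set against these. Pdk1 read 926, 1042 and 1010.5 in reconstituted, untransduced and GFP null cells against 1603 to 2438 (median 1797) in the wild-type line. The gap between the ranges was wide and the log2 difference was -0.88 (SE 0.123, adjusted p = 0.000216), with its 2 other tested probe sets at -1.21 and -0.93. Pfkfb4 and Pfkfb3 make and remove fructose 2,6-bisphosphate, the strongest activator of phosphofructokinase. Pfkfb4 read 225, 222 and 217 in the null line against 304 to 596 (median 325) in the wild-type line (log2 -0.63, SE 0.188, adjusted p = 0.0194), whereas Pfkfb3 overlapped and did not pass (0.22, 95% interval -0.20 to 0.64).

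The hypoxia-response members split. Of 12 tested, 4 were higher in the null line (Plod2, Adm, P4ha2, Vegfa), 4 were lower (Ero1a, Bnip3, Egln3, Hif1a) and 4 did not pass, with a median of -0.06. The shares were 33.3% higher and 33.3% lower, beside 20.7% and 23.2% of all tested genes. The largest difference of any member in each direction was in the hypoxia set. Plod2, a lysyl hydroxylase that prepares collagen for cross-linking, read 1337, 1641 and 2123 in reconstituted, untransduced and GFP null cells against 419 to 527 (median 451) in the wild-type line, a 3.5-fold higher level (log2 1.81, SE 0.134, adjusted p = 2.67e-06). Adm, the precursor of the vasodilator peptide adrenomedullin, read 3437, 3442 and 4804 in the null line against 812 to 1556 (median 1191), a log2 difference of 1.67 (SE 0.193, adjusted p = 6.19e-05). In both genes the lowest null-line array was above the highest wild-type-line array by a factor of more than 2.

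P4ha1 and P4ha2 are alternative catalytic subunits of collagen prolyl 4-hydroxylase. P4ha2 read 3565, 3688 and 4897 in reconstituted, untransduced and GFP null cells against 1771 to 2468 (median 2322) in the wild-type line (log2 0.84, SE 0.13, adjusted p = 0.000439), while P4ha1 overlapped, at 2926 to 4389 against 2821 to 3158, and did not pass (0.22), although its other tested probe set passed as higher (0.52, adjusted p = 0.0062). On the GFP null array Plod2, Adm, P4ha1 and P4ha2 were all at their highest of the 9. Vegfa, the vascular growth factor, was higher by only 0.23 (SE 0.0829, adjusted p = 0.0471): its signals were 1003, 1064 and 1046 in the null line against 811 to 956 (median 874) in the wild-type line, and its second probe set gave 0.04.

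Ero1a (listed under its older symbol Ero1l) is an oxidase that drives disulphide formation in the endoplasmic reticulum. It read 739, 832 and 959 in reconstituted, untransduced and GFP null cells against 2272 to 3308 (median 3142) in the wild-type line, 3.44-fold lower (log2 -1.78, SE 0.131, adjusted p = 2.54e-06), and its 2 other tested probe sets gave -1.25 and -1.20. Bnip3, a receptor for removal of mitochondria, read 1137, 671 and 776 in reconstituted, untransduced and GFP null cells against 1237 to 1821 (median 1441) in the wild-type line (log2 -0.79, SE 0.165, adjusted p = 0.00296). The reconstituted array was the closest of the 3 to the wild-type range.

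Among the oxygen sensors, Egln3 was lower in the null line at -0.76 (SE 0.221, adjusted p = 0.0178), with 112, 145 and 114 against 138 to 328 (median 235) in the wild-type line, so the untransduced null array overlapped the E824* array. Egln1, the main HIF prolyl hydroxylase, read 1346 to 1524 against 949.6 to 1454 and did not pass (0.35, adjusted p = 0.0529). It passed as higher when the wild-type GFP array (0.42) or the K278* array (0.38) was left out. Hif1a itself read 6930.2, 7072 and 7181 in the null line against 6967 to 10022 (median 9285) in the wild-type line, a log2 difference of -0.34 (SE 0.103, adjusted p = 0.0204), but the wild-type GFP array lay inside the null range and the other 2 tested Hif1a probe sets gave -0.04 and 0.11. Ndrg1, a stress-responsive gene, and Ankrd37 were at -0.91 (adjusted p = 0.0502) and -0.51 (adjusted p = 0.0625) and did not pass. Of the 4 other tested Ndrg1 probe sets, 3 passed as lower, at -1.17, -1.11 and -1.09 (adjusted p from 0.0106 to 0.0387), and 1 did not, at -0.97. Car9, a cell-surface carbonic anhydrase widely used as a hypoxia marker, was dim everywhere, at 55.1, 26.7 and 41.1 in the null line and 1.80 to 16.4 (median 3.70) in the wild-type line, too dim for the arrays to be ranked or tested. Bnip3l was read only by probe sets shared with its pseudogene, and the brightest of them read 3363, 3296 and 3635 in reconstituted, untransduced and GFP null cells against 4049 to 4285 in the wild-type line. The next set did not overlap either (2569 to 2613 against 2854 to 3360.5), but the dimmest did (713 to 904 against 753 to 927).

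Across the 27 tested members the 3 null-line arrays were all above the 6 wild-type-line arrays for 5 and all below for 10, and they overlapped for 12. Over all tested genes 20.3% lay wholly above and 21.1% wholly below. Other tested probe sets of the 17 members that passed had the same sign in 19 of 20 cases and the same call in 15.

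**Figure D2:**
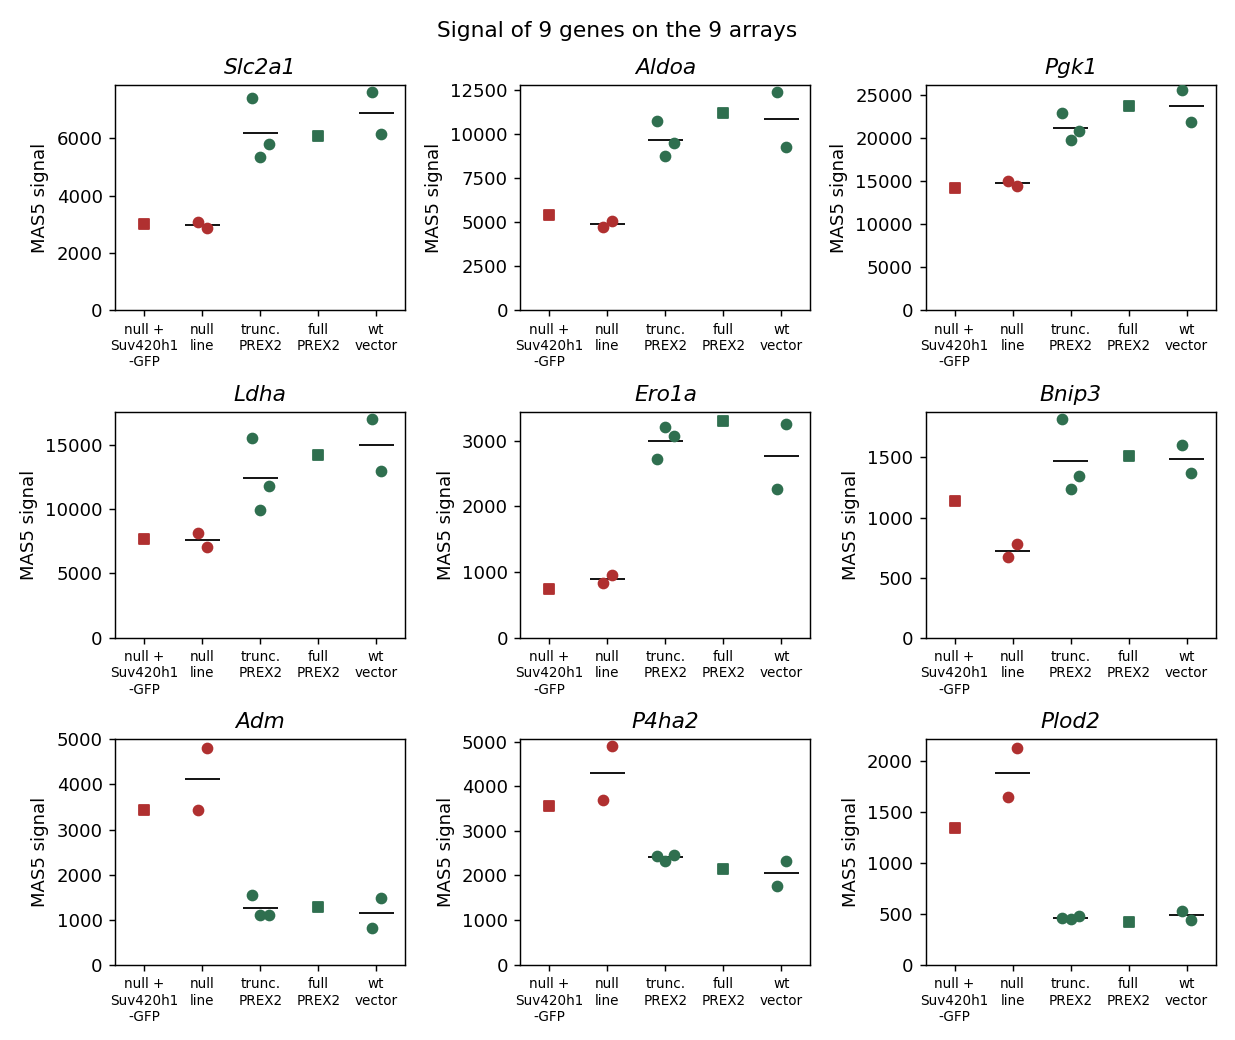
Signal (linear scale from 0) of 9 members that passed both line comparisons, by group; each point is 1 array, red for the null line and green for the wild-type line, squares mark groups of 1 array and bars the group means. Slc2a1, Aldoa, Pgk1, Ldha, Ero1a and Bnip3 are lower and Adm, P4ha2 and Plod2 higher in every null-line array, and Bnip3 is nearest to the wild-type line in the reconstituted array.

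When the null line proper was set against the control vectors (2 against 2 arrays, a subset of those above), 9 members were lower, 3 higher and 15 did not pass, where 20.3% of all tested genes passed, 10.0% lower and 10.2% higher. The 9 were Ero1a (-1.58), Slc2a1 (-1.19), Aldoa (-1.13), Bnip3 (-1.01), Ldha (-0.97), Pfkfb4 (-0.93), Pdk1 (-0.70), Pgk1 (-0.68) and Tpi1 (-0.63), with adjusted p-values from 0.00203 (Ero1a) to 0.0435 (Pfkfb4). The 3 were Plod2 (1.90, adjusted p = 0.00059), Adm (1.87) and P4ha2 (1.06). Hk2 (0.87, adjusted p = 0.124) and Pfkl (-0.57) did not pass here. Pfkp did not pass by its brightest probe set (0.03), although its other tested, dimmer set passed as higher (0.76, adjusted p = 0.0442). By role 5 of 12 glycolysis members were lower and 0 higher, 2 of 3 control genes were lower, and 2 of 12 hypoxia members were lower and 3 higher; the members' median was -0.37 and that of all tested genes -0.03. Of these 12, only Aldoa, Ero1a and Plod2 passed in every fit that left out 1 array. With either null array left out that group held 1 array, and fewer members passed, as did fewer probe sets over the whole array. Slc2a1, for example, missed the threshold without the GFP null array (-1.14). Leaving out the GFP array of the wild-type line left 1 control array. The median difference was then -0.35 over glycolysis members, -0.52 over control genes and 0.01 over hypoxia members. Ldha (-0.78), Pdk1 (-0.77), Pfkfb4 (-0.52) and Tpi1 (-0.45) then missed the threshold. In the larger comparison 13 of 17 passed in every fit that left out 1 array, the exceptions being Vegfa, Hif1a, Pfkfb4 and Egln3. Some members passed only in such fits. Egln1 (higher) and Ndrg1 (lower) did so without the wild-type GFP array or without the K278* array. Ankrd37 passed as lower without the E824* array, and P4ha1 as higher without the reconstituted array.

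**Figure D3:**
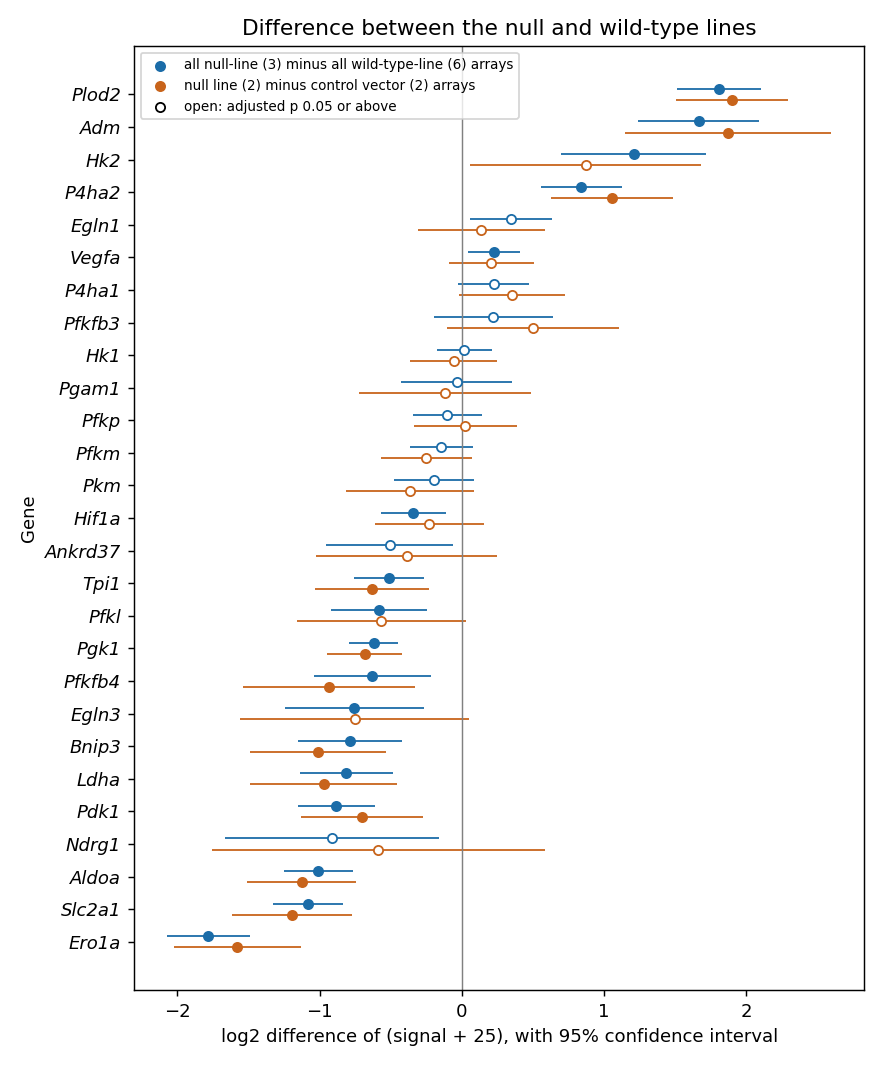
Log2 differences of the 27 tested members with 95% confidence intervals, for all null-line against all wild-type-line arrays (blue, 3 against 6) and for the null line against control vectors (orange, 2 against 2); filled points passed at an adjusted p of 0.05. Ero1a (-1.78), Slc2a1 (-1.08) and Aldoa (-1.01) have the lowest filled points in blue and Plod2 (1.81) and Adm (1.67) the highest, and intervals are wider with 2 arrays a side.

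Other genes of these pathways were read from lists chosen with earlier results of these data known, in the comparison of all arrays of each line. Of 15 further tested genes of glycolysis and glucose or lactate transport, 5 were lower and 4 higher, or 33.3% and 26.7%, beside 23.2% and 20.7% of all tested genes; their median was -0.01. Eno3, the muscle enolase, was the extreme: it read 301, 501 and 416 in reconstituted, untransduced and GFP null cells against 4027 to 7526 in the wild-type line (log2 -3.57, SE 0.199, 3 against 6 arrays). Bpgm, which makes 2,3-bisphosphoglycerate, was lower (-1.99), as was Arrdc4 (-0.95), a relative of the glucose-uptake inhibitor Txnip. The inositol transporter Slc2a13 was higher (1.03), at 275 and 428 on the untransduced and GFP null arrays. Its reconstituted array read 160.2, inside the wild-type range of 78.1 to 184.9. Slc2a13 missed the threshold when the untransduced or the GFP null array was left out. Against the control vectors alone, where 10.0% of all tested genes were lower and 10.2% higher, 3 of the 15 were lower and 2 higher. Among them were Pgm3 (1.10) and Ldhb (1.03), which encodes the other main lactate dehydrogenase subunit. Fits without 1 array, which leave 1 array in a group, gave 0.82 to 1.37 for Pgm3 and 0.70 to 1.36 for Ldhb.

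Genes of the import and use of pyruvate in mitochondria were lower in 5 of 11 cases (45.5%, beside 23.2% of all tested genes) and higher in 0. They included Pdhx (-0.58) and Dld (-0.39), components of the pyruvate dehydrogenase complex, and Mpc1 (-0.52), a subunit of the mitochondrial pyruvate carrier. Pyruvate carboxylase Pcx (-0.47) was also lower. Pdhx and Pcx did not pass in every fit that left out 1 array. Against control vectors 1 of 11 passed, Pdhx at -0.83, a share (9.09%) close to the 10.0% of all tested genes that were lower. In the pentose phosphate pathway, which branches from glycolysis to make NADPH and ribose, 4 of 9 were lower and 4 higher, 44.4% each. Prps1 (-1.01) and Taldo1 (-0.92) were lower, and Pgls (0.51) and Rpia (0.46) higher. Against control vectors 3 were lower, with Prps1 at -1.29, Taldo1 at -1.14 and Pgd at -0.53, and 1 was higher, Tkt at 0.33. With 1 array left out, so that a group held 1 array, Taldo1 lay between -1.36 and -0.91. Pgd then lay between -0.67 and -0.39, and Tkt between 0.29 and 0.36.

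Of 18 tested components of the HIF pathway 6 were lower and 4 higher, or 33.3% and 22.2%, and the share higher was close to the 20.7% of all tested genes. Arnt, the DNA-binding partner of HIF alpha subunits, read 1385, 1181 and 1405 in reconstituted, untransduced and GFP null cells against 306 to 617 in the wild-type line (log2 1.47, SE 0.189). Cited2, which competes with HIF for its coactivators, was also higher (1.21). Arnt2, a paralogue of Arnt, was lower (-1.41), and so was Epas1 (-1.21), the HIF-2 alpha subunit, which read 254 to 322 in the null line against 407 to 1022 in the wild-type line. Against control vectors 3 of 18 were lower and 2 higher (16.7% and 11.1%, beside 10.0% and 10.2% of all tested genes). Among them were Arnt (1.77), Arnt2 (-1.26), Cited2 (1.08) and Eloc (-0.55), the elongin subunit of the VHL complex. Fits without 1 array, which leave 1 array in a group, gave 1.55 to 1.99 for Arnt and -1.68 to -0.84 for Arnt2. They gave 0.88 to 1.28 for Cited2 and -0.72 to -0.38 for Eloc.

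Of 36 further genes known to be induced by hypoxia, 12 were lower and 9 higher, or 33.3% and 25%, beside 23.2% and 20.7% of all tested genes. Fos, an immediate-early transcription factor that many stimuli induce, read 9046, 9109 and 13906 in reconstituted, untransduced and GFP null cells against 160.1 to 374 in the wild-type line (log2 5.27, SE 0.219). Edn1, encoding the vasoconstrictor endothelin-1, was higher (3.03), and Stc1, a secreted glycoprotein hormone, and Angptl4, an inhibitor of lipoprotein lipase, were lower (-3.17 and -2.61). Against control vectors 7 were lower and 7 higher, 19.4% each beside 10.0% and 10.2% of all tested genes. Fos was at 5.56, Edn1 at 2.92, Angptl4 at -2.73 and Stc1 at -2.55. With 1 array left out, so that a group held 1 array, Stc1 lay between -3.49 and -1.60. Of 8 other genes of collagen hydroxylation and its oxidative folding, 3 were higher (P3h3 0.71, Ero1b 0.55, Plod3 0.35) and 1 lower (P3h2 -0.72) across all arrays, or 37.5% and 12.5%, and 0 passed against control vectors alone. Across all arrays P3h3, Ero1b and Plod3 each missed the threshold in at least 1 fit that left out 1 array, whereas P3h2 did not. The counts against control vectors changed without the wild-type GFP array, where 9.62% of all tested genes were lower and 8.64% higher. Lower were then 0 of 11 pyruvate genes, 1 of 9 pentose phosphate genes and 4 of 36 further hypoxia-induced genes, fewer than before, but 4 of 15 further glycolysis and transport genes and 1 of 8 collagen-hydroxylation genes, more than before; of the 15, 1 was then higher.

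Reconstitution of the null line with Suv420h1-GFP moved no member past the threshold (1 against 2 arrays). Over all tested genes 0% passed, so the test called nothing at this size of design. Bnip3 had the largest difference, with 1137 in reconstituted cells against 671 and 776 in null cells (log2 0.64, 95% interval 0.05 to 1.23). It was the only 1 of 27 members whose unadjusted limma p (0.0374) lay under 0.05, and it did not pass after adjustment. Plod2 read 1337 against 1641 and 2123 (-0.47, 95% interval -0.96 to 0.01), and Pfkm 884 against 665 and 727 (0.34, -0.05 to 0.73). Slc2a1 was at 0.01 (-0.51 to 0.53), Aldoa at 0.15 (-0.32 to 0.62) and Ldha at 0.01 (-0.62 to 0.65). The reconstituted arm is 1 array, so these intervals take their spread from the other groups and hold none of its own. The reconstituted value fell above both null arrays for 10 members, below both for 13 and between them for 4. The share of all tested genes in each position is not given, so this count from 1 array is not read as an effect on the members.

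In the wild-type line no member passed in any PREX2 comparison, and none had an unadjusted p under 0.05. Truncated PREX2 against control vector gave its largest member difference at Ndrg1 (0.68, 95% interval -0.39 to 1.74, adjusted p = 0.844), followed by Pfkfb3 (0.47), Pfkfb4 (-0.43) and Hk2 (-0.42), where 0.00983% of all tested genes passed. Full-length PREX2 against control vector gave Ndrg1 at 0.57, Pfkfb4 at -0.47 and Hk2 at -0.37, and truncated against full-length PREX2 gave Ankrd37 at -0.46 and Egln3 at -0.43, with 0% of all tested genes passing in each. The 2 comparisons with control vector share their control arrays. Without the GFP array Ndrg1 changed sign in both, to -0.078 for truncated and -0.19 for full-length PREX2. For Slc2a1 the interval of truncated PREX2 against control vector was -0.54 to 0.23, and for Pgk1 -0.40 to 0.08.

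**Figure D4:**
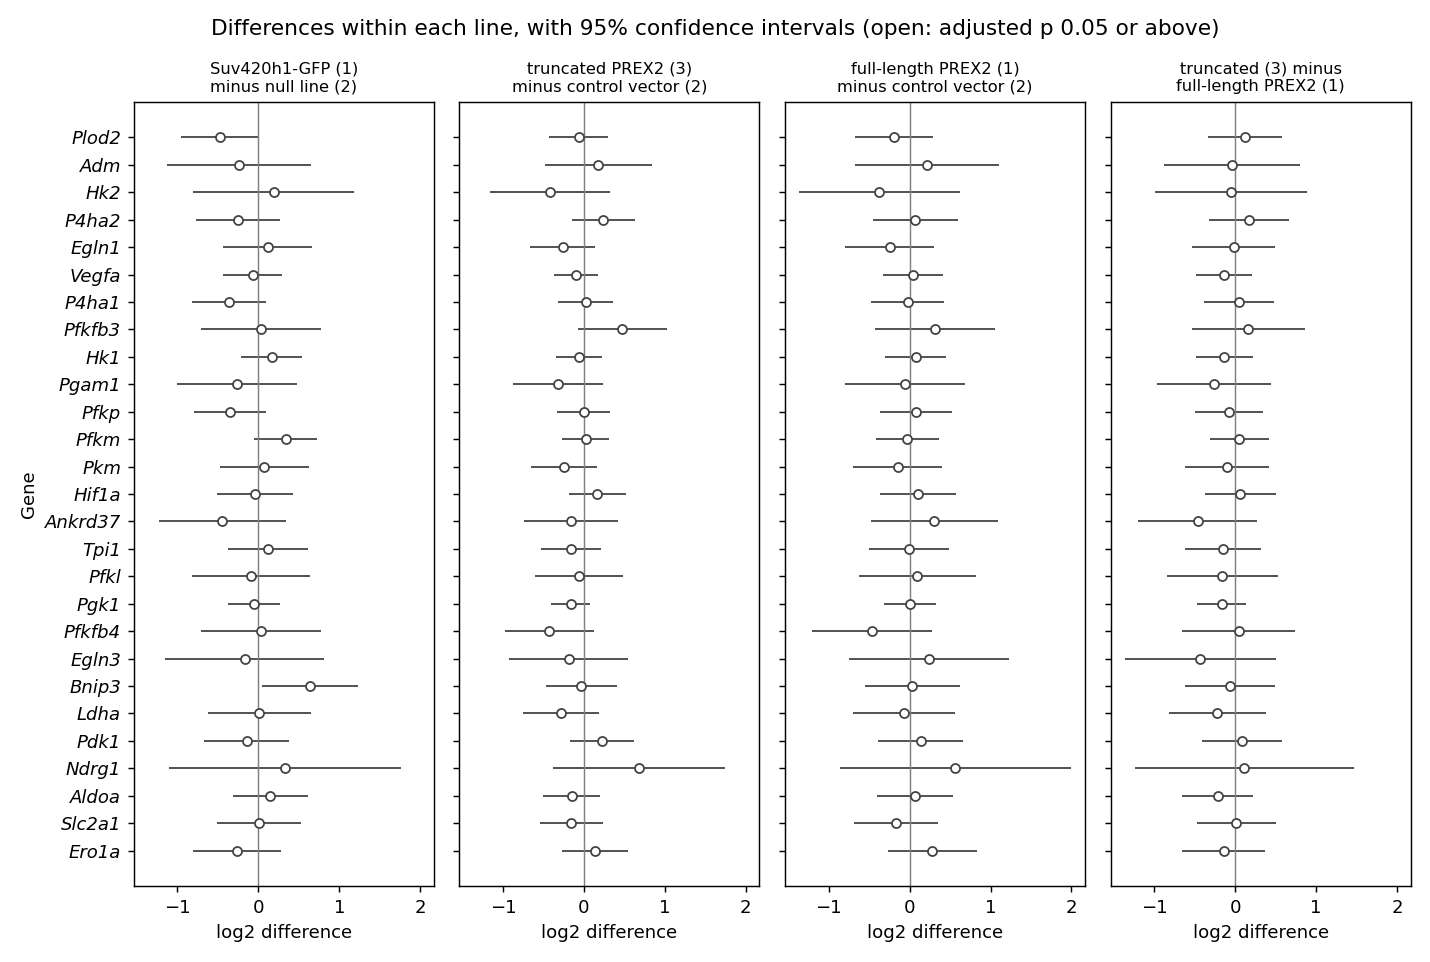
Log2 differences of the 27 tested members with 95% confidence intervals in 4 comparisons within a line, genes in the order of the line difference. No point passed at an adjusted p of 0.05; Bnip3 (0.64) on reconstitution is the one interval clear of 0, and the widest intervals belong to Ndrg1.

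The 2 control arrays differed from each other, and this is described without a test since each is 1 array. Ndrg1 read 2181 on the GFP array against 6261 on the LacZ array, a log2 difference of -1.51 and the only one of the 27 tested members past 2-fold; over all tested genes 5.5% were lower and 1.79% higher on the GFP array by that margin. Adm (-0.84), Hif1a (-0.52), Ero1a (-0.51) and Pfkfb3 (-0.49) were also lower on the GFP array, and Pfkfb4 (0.82) and Hk2 (0.71) higher. The GFP array was the highest of the 6 wild-type-line arrays for 8 of 12 glycolysis members, against 30.5% of all tested genes, and the E824* array the lowest for 9 of 12, against 21.1%.

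The mean of the 12 glycolysis members on the log2 scale ordered the wild-type-line arrays as GFP (12.0), K278* (11.92), full length (11.81), LacZ (11.72), Q1430* (11.64) and E824* (11.51). The mean of 17 genes of the G1/S transition and DNA replication gave the same order, at 11.92, 11.63, 11.17, 11.10, 10.93 and 10.71. The 6 arrays share a line and each holds 1 construct, so the shared order is a description, and the part of growth state in the glycolysis values was not tested. Between the lines the measures parted: the glycolysis mean was 11.43 to 11.46 in the null line, below every wild-type-line array. The G1/S mean was 11.08 to 11.42 in the null line, inside the wild-type range. Of 17 G1/S genes 1 was higher (Ccne2, 0.91) and 1 lower (Rrm1, -0.59), 5.88% each way. Over all tested genes 20.7% were higher and 23.2% lower. Neither Ccne2 nor Rrm1 passed in every fit that left out 1 array. The mean of the 12 hypoxia members did not follow either, at 10.32 to 10.52 in the null line and 10.24 to 10.48 in the wild-type line, with its lowest value on the GFP array.

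**Figure D5:**
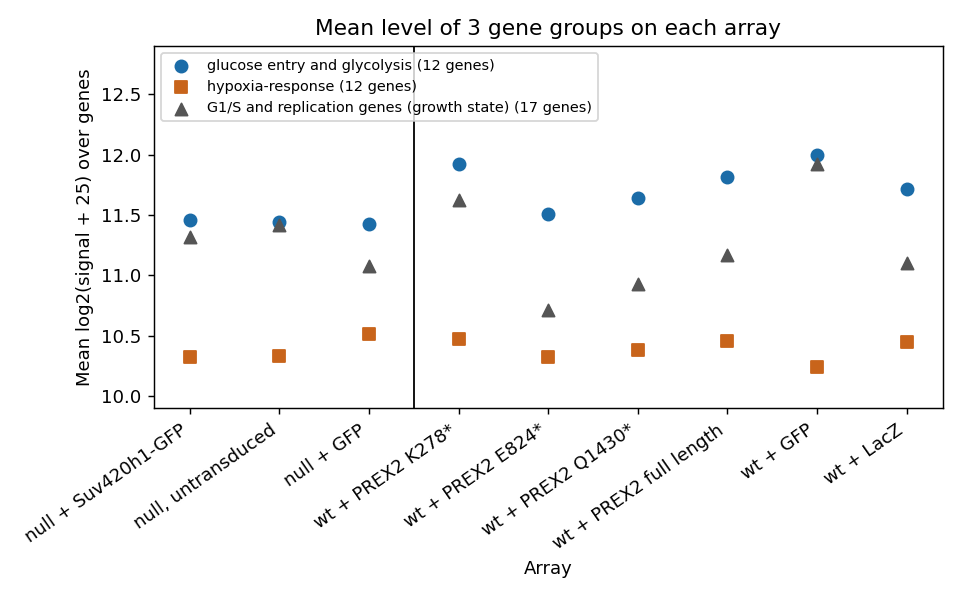
Mean log2(signal + 25) of the 12 glycolysis members, the 12 hypoxia members and 17 G1/S and replication genes on each array, with the null line left of the vertical line. Within the wild-type line glycolysis and G1/S means are highest on the GFP array (12.0 and 11.92) and lowest on the E824* array (11.51 and 10.71), and on the null-line arrays the glycolysis mean lies between 11.43 and 11.46.

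With the GFP and K278* arrays left out together, an alternative chosen after seeing the data, 30.7% of all tested genes were lower and 26.9% higher. Under it 6 of 12 glycolysis members were lower and 1 higher (median -0.29), 2 of 3 control genes were lower, and 5 of 12 hypoxia members were lower and 4 higher. Of the 15 fibroblast markers 12 were then lower, and of the 17 G1/S genes 5 were higher and 1 lower; with only the GFP array left out, 9 fibroblast markers were lower and 3 G1/S genes higher, where 27.6% of all tested genes were lower and 24.5% higher.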

How the data were processed

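Per the labels' protocols, RNA of 9 fibroblast samples was amplified and labelled by 3′ in vitro transcription for Affymetrix mouse arrays. The authors deposited intensity values that the submitters' processing notes attribute to MAS5, on a linear scale; its version and scaling target are not given here. Each array had a mean of 500 once 2% was trimmed from either end. Of 45101 probe sets 64 were controls; of the rest 34945 carried a single gene symbol, and those alone named genes, while 932 carried several and 9160 none.

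Signals were transformed as log2(signal + 25), so fold changes of dim probe sets are understated. Testing required a mean signal of 100 or more over the 9 arrays, met by 19090 probe sets and 10177 genes; a gene was read by its brightest probe set. Differences were tested in limma 3.58.1 (R 4.3.3) with an intensity trend, using 5 group means (4 residual degrees of freedom), or 2 line means (7) for all null-line against all wild-type-line arrays. P-values are two-sided and adjusted by Benjamini-Hochberg over all tested probe sets, with a threshold of 0.05; a group of 1 array borrows the spread of the others. The number of arrays limits the precision. The fitting code was first tested on simulated data with known changes.

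Promoter windows came from a RefSeq table of GRCm38.p6. The signals of the 3 null-line arrays one by one, with the lowest, median and highest of the 6 wild-type-line arrays, were given for members that passed a test and for Slc2a1, Hk2, Gapdh, Ldha, Pdk1, Vegfa, Car9, Egln3 and Hif1a, and in other lists up to 4 passing genes with the largest differences were named. The members and lists were chosen with earlier results of these data known. Alternatives were other offsets (5, 100), a filter at 200 or none, quantile normalization, no trend, probe sets averaged per gene, only the compared groups in the fit, 5 group means, and each array left out. Leaving out the wild-type GFP and K278* arrays together was chosen after seeing the data.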

Additional observations from a re-analysis of the deposited data

Results flagged for a closer look

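Among the 6 wild-type-line arrays, 4 of the 27 tested members had 1 array far from the others, judged by its gap to the nearest array divided by the whole range and set against the 95% critical value for 6 samples. Chance alone flags about 5% of independent groups tested this way. The members share the same 6 arrays, and the share of all tested genes flagged by this rule is not given. The GFP array was the highest of the 6 for 30.5% of all tested genes. Pfkfb4 stood at 596 on the GFP array, with the gap taking 0.846 of the range. Hif1a stood low at 6967 on the GFP array (0.695). Pdk1 stood high at 2438 on the K278* array (0.657), and Hk1 low at 1003 on the E824* array (0.693). Without the GFP array the null line differed from control vector by -0.52 in Pfkfb4, which no longer passed, and by -0.49 in Hif1a, which then passed.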

How the results depend on the processing

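No paired analysis was possible because the labels give no replicate numbers that pair arrays across groups. For the null line against control vector, 3753 probe sets passed, 1834 with the compared groups fitted alone, where fewer arrays estimate the spread, and 1011 to 4522 with 1 array left out; 12 members passed, and 3 to 11 with 1 array left out. For all arrays of each line, 8285 probe sets passed, 5440 features with probe sets averaged per gene, where fewer features were tested, and 6466 to 9646 with 1 array left out; 17 members passed, and 13 to 19 with 1 array left out. Reconstitution gave 0 probe sets, 1 after quantile normalization and 233 with the compared groups alone. Truncated PREX2 against control vector gave 1 probe set, 0 with an offset of 100, without the filter or with the compared groups alone, 3 without the GFP and K278* arrays, and 0 to 117 with 1 array left out; full-length PREX2 against control vector gave 0, and 0 to 3 with 1 array left out. Members called in the reconstitution and PREX2 comparisons were 0 under every alternative run. The reversals were Ndrg1 without the wild-type GFP array, at -0.078 for truncated and -0.19 for full-length PREX2 against control vector; without the LacZ array they were 1.43 and 1.32. In the null line against control vector, Pdk1, Tpi1 and Pfkfb4 missed the threshold without the filter and with the compared groups alone, and Tpi1 also after quantile normalization and without the trend. For all arrays of each line, Vegfa and Hif1a missed it after quantile normalization, with 5 group means and with probe sets averaged, and Pfkl also with probe sets averaged; Ndrg1 passed as lower with an offset of 100 and with probe sets averaged, and P4ha1 as higher with probe sets averaged. The cause was not tested. Dim members (Car9, Slc2a3, Slc16a3, Aldoc, Eno2) cannot be ranked between arrays at this signal.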
